A study of Mus musculus with 4 samples.

Results

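Nop10, Nop56, Nop58, Fbl, Dkc1, Nhp2, Gar1, Polr1b, Ncl and Npm1 encode proteins of the nucleolus, the part of the nucleus where ribosomes are made. These 10 genes were looked up by name among the probe sets of an expression array. A gene was represented by a probe set annotated with that gene alone, and by the one with the highest mean over the arrays where there were several. By this rule 9 of the 10 genes had a value, out of 22180 genes in all. Fbl had none, because its probe set was also annotated to Tulp4. The only measured value the rule used was the mean over the 4 arrays.

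The study compared whole stomach tissue of FVB mice that were 1 year old. The 2 Hdc-/- samples came from mice that lack Hdc, the gene of the enzyme that makes histamine, and the 2 Hdc+/+ samples came from mice with both copies intact. No other allele, treatment or agent is named for either group, and the sources used here do not say how Hdc was inactivated. Total RNA of each sample was hybridised to 1 Affymetrix array, and values are on the log2 scale, so a difference of 1 is a doubling. The titles number the samples as biological replicates without saying whether they are separate animals. Each standard error (SE) below is that of a difference between the genotypes. It is worked out from a gene's spread between these samples, drawn towards the spread seen over all genes, and may not measure the spread between animals. In bulk tissue, fewer cells of a type and less RNA per cell cannot be told apart.

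Small nucleolar RNAs (snoRNAs) guide chemical changes to ribosomal RNA, and each works inside a small ribonucleoprotein particle, the snoRNP. Box C/D particles contain Nop56, Nop58 and the methyltransferase fibrillarin (Fbl), and they methylate ribose. Box H/ACA particles contain the pseudouridine synthase dyskerin (Dkc1) with Nhp2, Nop10 and Gar1, and they turn uridine into pseudouridine. RNA polymerase I, of which Polr1b is the second largest subunit, transcribes the ribosomal RNA precursor. Nucleolin (Ncl) and nucleophosmin (Npm1) are abundant nucleolar proteins that bind that precursor and help to assemble ribosomes. The output of this machinery is known to follow cell growth, and the transcription factor Myc is a known activator of many of its genes.

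All 9 measured genes read higher on average in Hdc-/- than in Hdc+/+ stomach, by 0.15 to 0.72 on the log2 scale. The median difference was 0.38, or 1.30-fold, against a median of 0.02 over all 22180 genes. Nop10 and Polr1b differed by about the same amount on both Hdc-/- arrays, whereas Nop58, Gar1, Dkc1, Ncl and Npm1 were high mainly on Hdc-/- array 1. No gene of the group passed the test over all genes, with limma adjusted p from 0.408 to 0.886. The test called 0.00451% of all genes higher, which was 1 gene, the class II histocompatibility gene H2-Ea, and 0% lower. H2-Ea read 7.65 and 7.47 on the Hdc-/- arrays and 3.36 and 3.02 on the Hdc+/+ arrays. Whether the mice of the groups also differ in parts of the genome other than Hdc was not tested.

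RefSeq promoter sequences (build GRCm38.p6) were at hand for 8 of the 10 genes. The 250 bases before the transcript start are shown for 3 genes whose arrays did not overlap between genotypes: Nop10 and Polr1b, which differed most evenly, and Gar1, whose difference lay mainly on 1 array. They are written 5′ to 3′ on the strand of the gene, and capitals mark matches to the motifs named below them.
Nop10 (chr2:112261676-112261925, plus strand): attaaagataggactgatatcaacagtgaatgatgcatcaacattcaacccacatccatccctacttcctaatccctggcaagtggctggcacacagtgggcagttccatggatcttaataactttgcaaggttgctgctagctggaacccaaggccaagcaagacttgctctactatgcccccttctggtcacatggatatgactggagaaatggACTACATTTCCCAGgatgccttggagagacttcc
Polr1b (chr2:129100746-129100995, plus strand): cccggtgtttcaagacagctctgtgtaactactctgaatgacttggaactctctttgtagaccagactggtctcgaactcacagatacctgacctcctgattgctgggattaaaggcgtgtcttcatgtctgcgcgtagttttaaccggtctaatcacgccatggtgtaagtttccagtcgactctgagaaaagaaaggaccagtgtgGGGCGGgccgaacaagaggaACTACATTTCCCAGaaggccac
Gar1 (chr3:129831397-129831646, minus strand): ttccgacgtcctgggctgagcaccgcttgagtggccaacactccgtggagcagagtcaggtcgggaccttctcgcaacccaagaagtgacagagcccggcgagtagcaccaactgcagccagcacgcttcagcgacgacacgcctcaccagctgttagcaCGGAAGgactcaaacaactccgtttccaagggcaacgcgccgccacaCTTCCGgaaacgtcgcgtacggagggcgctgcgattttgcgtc
The Nop10 and Polr1b windows share the run ACTACATTTCCCAG, which is close to the known binding element of the factor Zfp143. It ends 20 bases before the start of Nop10 and 8 bases before that of Polr1b. Of the 28 pairs of the 8 promoters, 2 shared a run of 14 bases, and the next longest run was of 11. The other pair was Ncl and Nhp2, which share CAGGCCCCGCCCCT, a run that contains the reverse complement of the GC box below. Searched on both strands, the Nop10 and Polr1b run was in 0.253% of all 32851 promoter windows of the same length, and the Ncl and Nhp2 run in 0.119%. Both were chosen from these sequences, so the matches are a description. The motif CACGTG, the E-box that Myc can bind, was in 0 of the 8 promoters and in 6.02% of all windows, which says only that these letters are not in these windows. GGGCGG, the GC box, was in 5 of the 8 and in 32.7% of all windows, and CCAAT was in 2 of the 8 and in 33.8%. CGGAAG, the core of ETS factor sites, was in 2 of the 8, Gar1 and Nhp2, and in 13.6% of all windows. TCTCGCGA was in 1, the Nop58 promoter, and in 0.858% of all windows. No motifs overlapped within a printed sequence. The median count of CG dinucleotides was 12 in the 8 promoters and 6 in all windows, and it was 0 in the Nop10 promoter, 10 in that of Polr1b and 25 in that of Gar1.

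**Figure D1:**
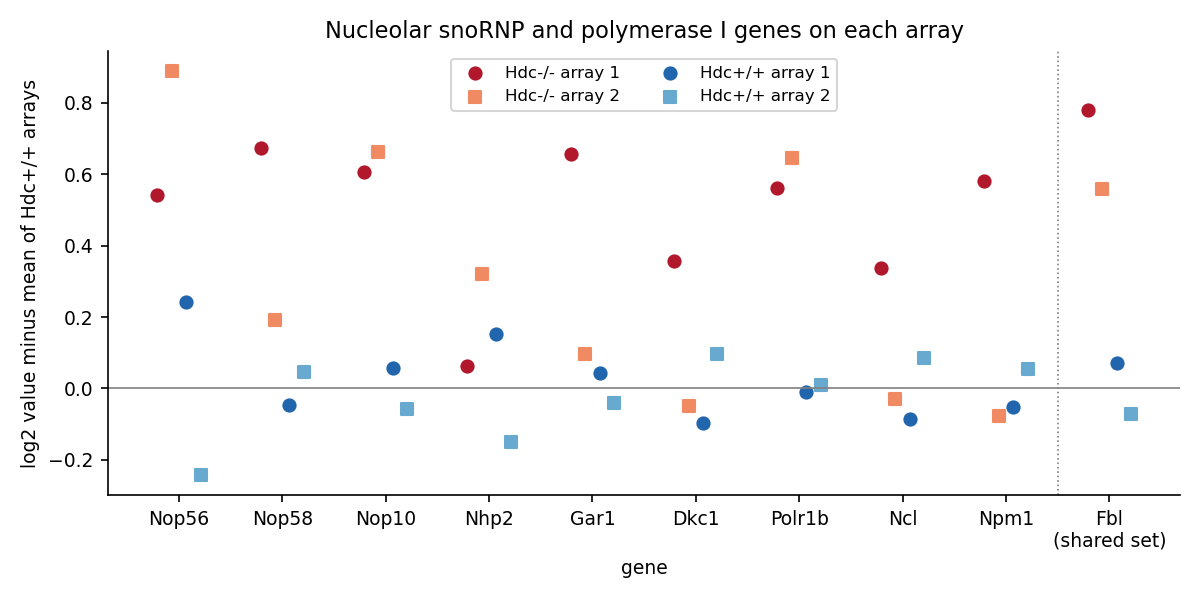
Each point is the log2 value of a gene on 1 array minus the mean of the Hdc+/+ arrays for that gene, for the 9 measured genes and, right of the dotted line, for the probe set shared by Fbl and Tulp4. Both Hdc-/- points lie above both Hdc+/+ points for Nop56, Nop58, Nop10, Gar1 and Polr1b, and Hdc-/- array 1 stands alone at the top for Dkc1, Ncl and Npm1.

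Among the box H/ACA proteins, Nop10, the smallest subunit, which holds dyskerin and the guide RNA together, read 8.33 and 8.39 on the Hdc-/- arrays, against 7.78 and 7.67 on the Hdc+/+ arrays. Every Hdc-/- value lay above every Hdc+/+ value, with the 4 array-to-array differences between 0.55 and 0.72. The log2 difference was 0.63 (SE 0.16, n = 2 in each genotype, limma adjusted p = 0.408), which is 1.55-fold. It stayed between 0.58 and 0.69 with any 1 array left out.

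Gar1, which helps the particle to load and release its target RNA, read 6.08 and 5.52 on the Hdc-/- arrays and 5.47 and 5.39 on the Hdc+/+ arrays. Only Hdc-/- array 1 stood clear of the rest, although the groups did not overlap. The log2 difference of 0.38 (SE 0.23, limma adjusted p = 0.705) was 0.095 without Hdc-/- array 1 and 0.66 without Hdc-/- array 2. Dkc1, the catalytic subunit, read 5.60 and 5.20 on the Hdc-/- arrays and 5.15 and 5.34 on the Hdc+/+ arrays, so the groups overlapped. Its log2 difference was 0.15 (SE 0.21, limma adjusted p = 0.886), and it was -0.048 without Hdc-/- array 1. Nhp2, which binds RNA in the particle, read 6.01 and 6.27 on the Hdc-/- arrays and 6.10 and 5.80 on the Hdc+/+ arrays. Here the highest value was on Hdc-/- array 2, and the groups overlapped. The log2 difference of 0.19 (SE 0.20, limma adjusted p = 0.843) was 0.34 without Hdc+/+ array 1 and 0.040 without Hdc+/+ array 2. Of these 4 genes, Nop10 had the smallest spread between its Hdc-/- arrays (SD 0.039), followed by Nhp2 (SD 0.18), Dkc1 (SD 0.29) and Gar1 (SD 0.40), with n = 2 each.

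Among the box C/D proteins, Nop58 read 7.12 and 6.64 on the Hdc-/- arrays and 6.40 and 6.49 on the Hdc+/+ arrays. The groups did not overlap, and Hdc-/- array 1 was the highest. The log2 difference was 0.43 (SE 0.21, n = 2 per group, limma adjusted p = 0.636), and it was 0.19 without Hdc-/- array 1 and 0.67 without Hdc-/- array 2. Fbl could be read only through the probe set it shares with Tulp4, which is outside the rule. That probe set read 6.71 and 6.49 on the Hdc-/- arrays and 6.01 and 5.86 on the Hdc+/+ arrays, again without overlap. In a fit of every probe set its log2 difference was 0.67 (SE 0.19, limma adjusted p = 0.573). The shares of Fbl and Tulp4 in it cannot be told apart.

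Nop56, the partner of Nop58 in the particle, had 3 probe sets of its own, and they did not follow the same pattern over the arrays. The one chosen by the rule, probe set 17376272, read 7.55 and 7.90 on the Hdc-/- arrays and 7.25 and 6.77 on the Hdc+/+ arrays, so Hdc-/- array 2 was the highest. Its log2 difference was 0.72 (SE 0.24, n = 2 per group, limma adjusted p = 0.506), and it was 0.96 without Hdc+/+ array 1 and 0.47 without Hdc+/+ array 2. Probe set 17376252 read 6.56 and 6.27 on the Hdc-/- arrays and 5.93 and 5.83 on the Hdc+/+ arrays, with Hdc-/- array 1 the highest as in Nop58. Probe set 17376274 read 4.81 and 5.73 on the Hdc-/- arrays and 4.63 and 4.04 on the Hdc+/+ arrays. In the fit of every probe set these last probe sets differed by 0.53 (SE 0.19, limma adjusted p = 0.644) and 0.93 (SE 0.38, limma adjusted p = 0.686). All 3 gave higher values on both Hdc-/- arrays than on either Hdc+/+ array. They disagreed on which Hdc-/- array was higher and on the size of the difference.

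Polr1b, the polymerase I subunit, read 4.915 and 4.999 on the Hdc-/- arrays and 4.34 and 4.36 on the Hdc+/+ arrays. It was the dimmest of the measured genes of the group, at percentile 51.3 of mean level over all genes. Its Hdc+/+ values lay below the medians over genes of those arrays (4.60 and 4.58), and no background values were used. The arrays of each genotype lay close together (SD 0.060 in Hdc-/- and 0.015 in Hdc+/+, n = 2 each), and the groups stood apart by at least 0.55. The log2 difference was 0.60 (SE 0.16, limma adjusted p = 0.428), a 1.52-fold difference, and it ran from 0.56 to 0.65 with any 1 array left out.

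The general nucleolar proteins overlapped between the genotypes. Ncl read 7.34 and 6.97 on the Hdc-/- arrays and 6.92 and 7.09 on the Hdc+/+ arrays, a log2 difference of 0.15 (SE 0.20, limma adjusted p = 0.882). Npm1 read 8.64 and 7.99 on the Hdc-/- arrays and 8.01 and 8.12 on the Hdc+/+ arrays, a log2 difference of 0.25 (SE 0.25, limma adjusted p = 0.838). In both genes only Hdc-/- array 1 was high, and Hdc-/- array 2 lay within or below the Hdc+/+ values. Without Hdc-/- array 1 the differences were -0.030 for Ncl and -0.077 for Npm1, and without Hdc-/- array 2 they were 0.34 and 0.58. A second Npm1 probe set, with lower values, read 3.74 and 3.68 on the Hdc-/- arrays and 3.74 and 3.70 on the Hdc+/+ arrays. Npm1 has processed copies in the genome, and whether they add to either probe set was not tested.

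**Figure D2:**
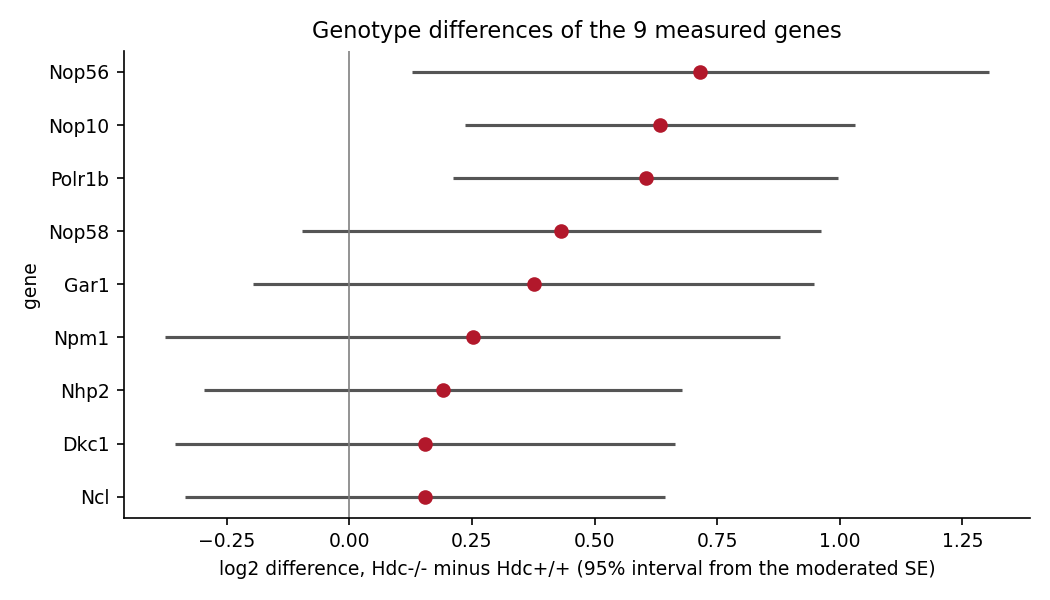
Log2 differences (Hdc-/- minus Hdc+/+, points) with 95% intervals from the moderated standard errors (lines) for the 9 measured genes. The intervals of Nop56, Nop10 and Polr1b lie above 0 before adjustment for the number of genes tested, and the other 6 include 0.

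Across the group, 5 of the 9 genes read higher on both Hdc-/- arrays than on either Hdc+/+ array, and 0 of 9 read lower on both. Of all 22180 genes, 21.5% were separated in the higher direction and 17.6% in the lower. At an unadjusted limma p under 0.05 the counts were 3 higher, Nop10, Nop56 and Polr1b, and 0 lower, against 3.68% and 4.87% of all genes. The sign of the difference was positive in 9 of 9 genes and in 54.1% of all genes, and negative in 0 of 9 and in 45.9%. The list was drawn up with earlier results of these arrays known, so these counts describe it and give no independent evidence of a direction. An exact permutation test of 1 gene with 2 arrays per group cannot give a p below 0.333.

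These counts depended on single arrays. Relative to the Hdc+/+ mean of each gene, the median of the 9 genes was 0.56 on Hdc-/- array 1 and 0.19 on Hdc-/- array 2. Without Hdc-/- array 1, 6 of 9 genes had a positive difference and the median difference was 0.19, and without Hdc-/- array 2 all 9 did and the median was 0.56. Leaving out Hdc+/+ array 1 or Hdc+/+ array 2 kept all 9 positive, with medians of 0.39 and 0.33. The separated genes numbered 6 of 9 without Hdc-/- array 1, where 39.9% of all genes were separated in that direction, and 8 of 9 without Hdc-/- array 2, where 38.3% were. Without Hdc+/+ array 1 they numbered 6 of 9 (39.6% of all genes), and without Hdc+/+ array 2 they numbered 7 of 9 (32.2%). In the lower direction 1 gene, Npm1, was separated without Hdc-/- array 1 (33.5% of all genes), and 0 were without any other array.

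In mammals most snoRNAs are cut from introns of host genes, and several of the genes described here are known hosts. In the RefSeq gene table, 12 snoRNA genes lie within the spans of Nop56, Nop58, Dkc1 and Ncl, and 6 of them had a probe set. The 6 differed by 0.28 to 0.73 on the log2 scale, with SE from 0.21 to 0.43 and limma adjusted p from 0.615 to 0.882 in the fit of every probe set. Snord110, within Nop56, read 9.89 and 10.38 on the Hdc-/- arrays and 9.52 and 9.28 on the Hdc+/+ arrays, and 4 of the 6 were separated in this direction and 0 in the other, against 20.4% and 16.7% of all 41345 probe sets. Snord82, within Ncl, read 9.79 and 10.51 on the Hdc-/- arrays and 9.68 and 9.53 on the Hdc+/+ arrays. Snord70, within Nop58, read 6.73 and 7.84 on the Hdc-/- arrays and 7.18 and 6.54 on the Hdc+/+ arrays, with overlap. The other 3, Snord57, Snord11 and Snora75, differed by 0.59, 0.70 and 0.28, and the Snord57 probe set was also annotated to Nop56.

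The order of the arrays was compared between the snoRNAs and their host genes. All 6 snoRNA probe sets were higher on Hdc-/- array 2 than on Hdc-/- array 1, and higher on Hdc+/+ array 1 than on Hdc+/+ array 2. Nop58 and Ncl had the opposite order in both genotypes. For Nop56, probe sets 17376272 and 17376274 had the order of the snoRNAs, and probe set 17376252 had the order of Nop58 between the Hdc-/- arrays. No source used here gives the transcript that each Nop56 probe set reads, and whether snoRNA signal adds to the chosen one was not tested.

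**Figure D3:**
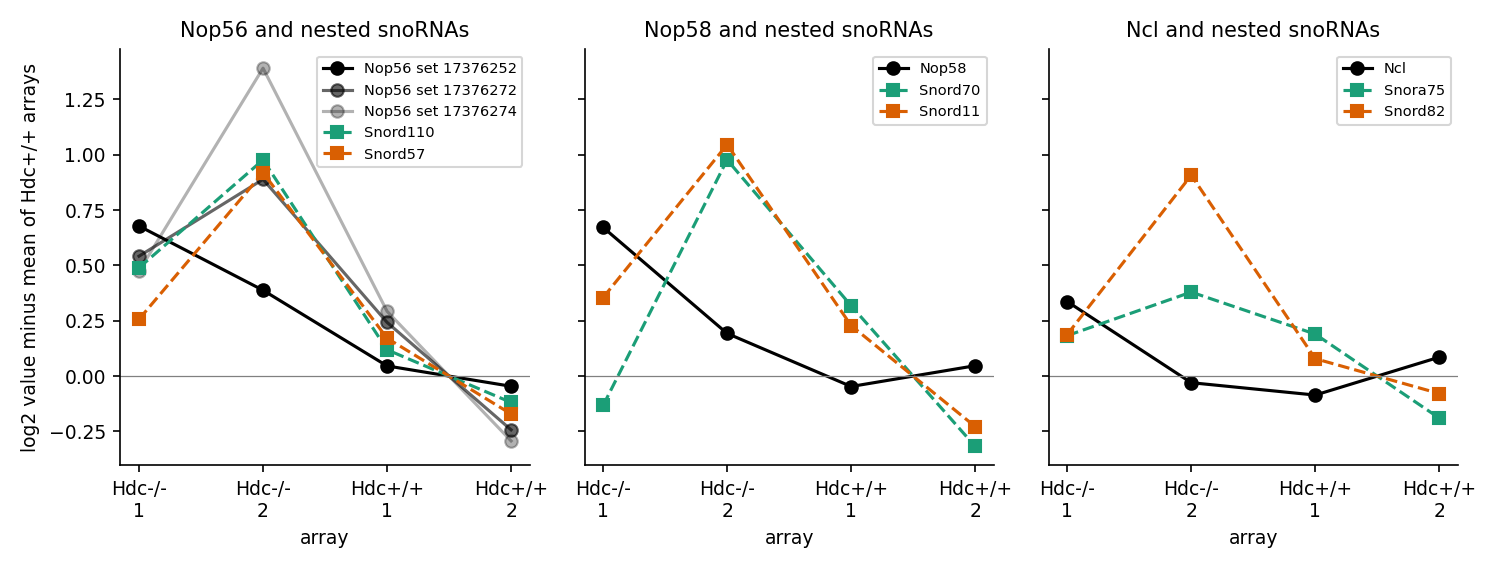
Log2 values minus the Hdc+/+ mean on each array for the host genes Nop56 (3 probe sets), Nop58 and Ncl (black and grey lines) and for the snoRNAs within their spans (coloured dashed lines). The snoRNAs and Nop56 probe sets 17376272 and 17376274 peak on Hdc-/- array 2, whereas Nop58, Ncl and Nop56 probe set 17376252 peak on Hdc-/- array 1.

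The rest of the ribosome production pathway was described through 7 lists, which together held 129 measured genes other than those above. Of these, 103 had a positive difference (79.8%, against 54.1% of all genes), and their median was 0.17 on the log2 scale. They averaged 5.91 and 5.81 on the Hdc-/- arrays and 5.68 and 5.70 on the Hdc+/+ arrays, so Hdc-/- array 1 was again the highest. The lists were chosen with earlier results of these arrays known, so their counts are a description. No gene of the 7 lists passed the test over all genes by limma, and at an unadjusted p under 0.05 there were 10 higher and 2 lower, against 3.68% and 4.87% of all genes.

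Other snoRNP proteins and their assembly factors, 17 genes, had a median difference of 0.20, and 13 of them were positive. The genes with the smallest p were Snu13, a box C/D core protein (0.36, SE 0.16), Pih1d1, a subunit of a chaperone complex for snoRNPs (0.44, SE 0.21), and Shq1, a chaperone of dyskerin (0.27, SE 0.17). Each read higher on both Hdc-/- arrays than on either Hdc+/+ array, which a choice by smallest p favours. Over the list, 7 of the 17 were separated in this direction and 0 in the other, against 21.5% and 17.6% of all genes. None of the 17 had an unadjusted limma p under 0.05.

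The other polymerase I subunits differed by -0.24 to 0.26 on the log2 scale, against 0.60 for Polr1b. Of 11 measured, 8 were positive, with a median of 0.21. Polr2e and Polr1d, which polymerase I shares with other nuclear RNA polymerases, and Cd3eap, a subunit of polymerase I, each differed by 0.26 (SE 0.17). Whether Polr1b differs from these subunits was not tested. The 11 factors that start, stop or regulate polymerase I had a median of 0.01, near that of all genes. Taf1d, a subunit of the promoter factor SL1, read 8.98 and 9.64 on the Hdc-/- arrays and 8.90 and 8.71 on the Hdc+/+ arrays, a log2 difference of 0.51 (SE 0.26). Taf1c and Taf1a, of the same complex, differed by 0.22 (SE 0.16) and -0.30 (SE 0.23). In both genotypes Taf1d had the array order of the 6 snoRNA probe sets above, and whether snoRNA signal adds to it was not tested.

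Among factors that process ribosomal RNA and assemble the subunits, most differences were positive and none passed the test. In the small subunit processome list, 31 of 35 genes were positive with a median of 0.22, and 21 were separated in the higher direction and 1 in the lower, against 21.5% and 17.6% of all genes. Utp11, a processome protein, read 7.64 and 7.67 on the Hdc-/- arrays and 6.60 and 6.66 on the Hdc+/+ arrays. Its log2 difference of 1.02 (SE 0.16), or 2.03-fold, had a limma adjusted p of 0.256. Wdr75 and Utp20, of the same complex, differed by 0.65 (SE 0.24) and 0.45 (SE 0.17). In the large subunit assembly list, 31 of 33 genes were positive with a median of 0.26, and 17 were separated in the higher direction and 0 in the lower, against the same 21.5% and 17.6%. Nop2, a ribosomal RNA methyltransferase, differed by 0.56 (SE 0.18), and the RNA helicase genes Ddx21 and Ddx56 by 0.53 (SE 0.21) and 0.40 (SE 0.16). Both list means were highest on Hdc-/- array 1. The small subunit list averaged 5.97 and 5.80 on the Hdc-/- arrays and 5.66 and 5.68 on the Hdc+/+ arrays. For the large subunit list these means were 5.85 and 5.70, and 5.49 and 5.56.

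Among regulators of growth, Myc read 6.50 and 6.32 on the Hdc-/- arrays and 5.56 and 5.72 on the Hdc+/+ arrays. Both Hdc-/- values lay above both Hdc+/+ values, and the log2 difference was 0.77 (SE 0.17, limma adjusted p = 0.371). Mtor, the kinase gene of the growth pathway of that name, and Cad, an enzyme of pyrimidine synthesis, differed by 0.50 (SE 0.16) and 0.48 (SE 0.16). The whole list of 15 genes had a median of 0.16, with 11 positive. The list of nucleoplasmins and nucleolar stress genes, 7 measured, had a median of -0.15, with 3 positive. In it Cdkn1a, the gene of the cell cycle inhibitor p21, read 9.24 and 9.75 on the Hdc-/- arrays and 10.41 and 10.14 on the Hdc+/+ arrays, a log2 difference of -0.78 (SE 0.23, limma adjusted p = 0.465). Senp3, a nucleolar SUMO protease, and Npm2, an oocyte relative of Npm1, differed by 0.26 (SE 0.16) and -0.15 (SE 0.16).

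**Figure D4:**
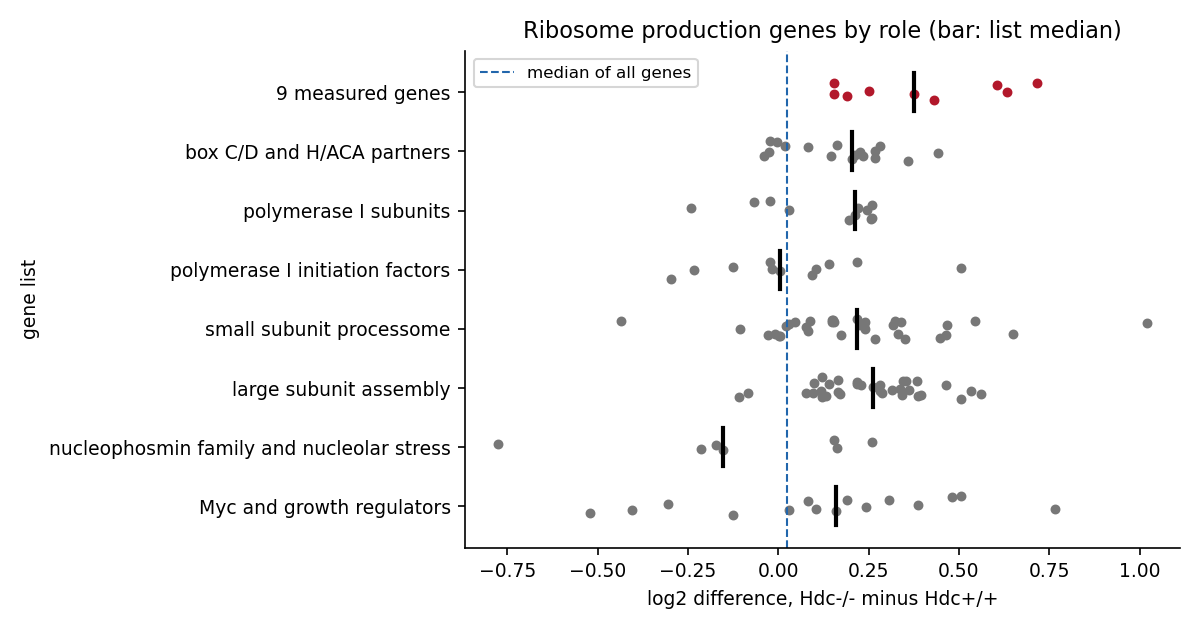
Each point is the log2 difference (Hdc-/- minus Hdc+/+) of 1 gene, by list, with a black bar at the list median and a dashed line at the median of all genes (0.02). The 9 measured genes (median 0.38) and the lists for the small and large ribosomal subunits (medians 0.22 and 0.26) lie mostly right of the line. The list labelled polymerase I initiation factors (0.01), which also holds factors that stop or regulate the polymerase, lies around that line.

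The genes closest to the mean course of the 9 over the 4 arrays, by root mean square distance of values centred on each gene's mean, were Atp5mpl, Prkch, Prpf31, Dmtn and Lsg1, at distances from 0.011 to 0.015. The 9 themselves lay at 0.115 (Nop58) to 0.295 (Nop56), with a median of 0.154. As many as 3184 other genes lay as near as that median, so such nearness over 4 arrays is not particular to this group. The distance was not scaled to the spread of each gene, so genes that vary little can also lie near. The count therefore does not show how many genes share the course.

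The arrays differed in tissue content, and those values stand beside the results above. All 13 defining stomach epithelium markers read at least 5.18 on every array, above the array medians over genes of 4.56 to 4.60. They averaged 10.88 and 10.67 on the Hdc-/- arrays and 10.55 and 10.52 on the Hdc+/+ arrays. In this mean Hdc-/- array 1 stood above Hdc-/- array 2 only through the mucin gene Muc6, which read 11.94 and 8.90 on them. Single stomach markers differed by -0.82 to 1.89 on the log2 scale, and 6 of the 13 were positive, with a median of -0.05. At an unadjusted limma p under 0.05, 3 were higher and 0 lower, against 3.68% and 4.87% of all genes. The gastrokine genes Gkn2 and Gkn1 differed by -0.05 and -0.11. All 12 liver markers were lower in Hdc-/- stomach, with mean levels of 4.05 and 4.15 on the Hdc-/- arrays and 7.88 and 9.79 on the Hdc+/+ arrays, and the plasma protein genes Alb and Ttr differed by -7.02 and -2.06. The 8 pancreatic acinar markers averaged 5.21 and 5.16 on the Hdc-/- arrays and 4.84 and 8.33 on the Hdc+/+ arrays, so Hdc+/+ array 2 stood apart. The pancreatic genes Clps (a colipase) and Ctrb1 (a chymotrypsinogen) differed by 0.45 and -2.88. Clps was high on every array, at 12.02 and 12.20 in Hdc-/- and 11.93 and 11.38 in Hdc+/+. Ctrb1 was high only on Hdc+/+ array 2, at 10.94, against 5.14 on Hdc+/+ array 1 and 5.25 and 5.06 on the Hdc-/- arrays. The 11 intestinal markers averaged 5.14 and 4.99 on the Hdc-/- arrays and 5.81 and 7.69 on the Hdc+/+ arrays, with differences of -1.37 for the lipoprotein gene Apoa4 and -3.92 for the fatty acid binding protein gene Fabp2. The 9 squamous markers averaged 3.59 and 4.12 on the Hdc-/- arrays and 4.87 and 5.33 on the Hdc+/+ arrays, with differences of -2.33 for Krtdap and -2.15 for the keratin gene Krt4. The 9 immune markers averaged 5.23 and 5.24 on the Hdc-/- arrays and 4.69 and 4.98 on the Hdc+/+ arrays, with differences of 0.86 for the lysozyme gene Lyz2 and 0.83 for the T cell receptor subunit gene Cd3e. Single immune markers differed by -0.33 to 0.86, and 6 of the 9 were positive.

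Hdc-/- array 1, where 5 of the 9 genes were highest, was also highest in the mean of the markers of dividing cells. In the mean of the stomach epithelium markers it was highest only with Muc6 included. The 19 proliferation markers averaged 5.30 and 5.05 on the Hdc-/- arrays and 5.04 and 4.99 on the Hdc+/+ arrays, with a median difference of 0.20. Mki67, a marker of cycling cells, read 6.53 and 5.97 on the Hdc-/- arrays and 5.94 and 6.05 on the Hdc+/+ arrays, with Hdc-/- array 1 alone at the top, as for Npm1. Pcna, a DNA replication clamp gene and the other proliferation marker of highest mean, read 7.54 and 7.27 on the Hdc-/- arrays and 7.45 and 7.47 on the Hdc+/+ arrays, a log2 difference of -0.06. Muc6, the mucin of gland mucous cells, is itself in the stomach epithelium list and was named after its values were seen. It read 11.94 and 8.90 on the Hdc-/- arrays and 8.40 and 9.30 on the Hdc+/+ arrays. The part of dividing cells, gland cells or other organs in the differences of the 9 genes was not tested. Hdc itself read 3.77 and 4.06 on the Hdc-/- arrays and 3.99 and 3.82 on the Hdc+/+ arrays, which gives no check of the labels, on which all directions rest.

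**Figure D5:**
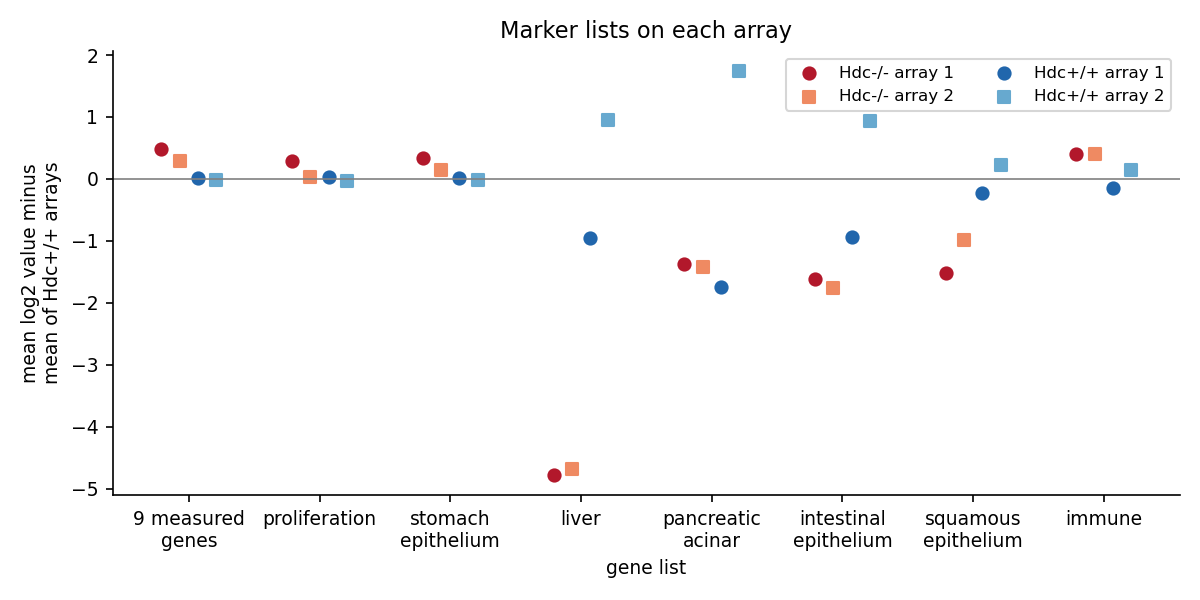
Mean log2 level of each list on each array minus the mean of the Hdc+/+ arrays, for the 9 measured genes and 7 marker lists. The 9 genes and the proliferation and stomach epithelium markers are highest on Hdc-/- array 1, the stomach markers only through Muc6. The liver, pancreatic, intestinal and squamous markers are highest on Hdc+/+ array 2, and the immune markers are higher on both Hdc-/- arrays.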

How the data were processed

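The authors deposited log2 probe set values on which RMA had been run, per the submitters' processing notes. The notes list Affymetrix Power Tools and oligo too, with no version. The array annotation's build and any filter were not stated. Of 41345 probe sets, 23521 had 1 gene symbol, 1814 several and 16010 none, and array medians ran from 4.05 to 4.15. Of those with 1 symbol, 23328 matched the GRCm38.p6 gene table by Entrez identifier, with 0 symbols changed.

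Hdc-/- arrays were compared with Hdc+/+ arrays over all 22180 genes with limma 3.58.1 in R 4.3.3 (lmFit, eBayes, no covariate, Benjamini-Hochberg adjustment, threshold 0.05), and the fit was tested on simulated data. SE is the moderated standard error, which draws a gene's own variance towards that of all genes. Dim genes were kept, and no background values were used, and precision is limited by having 4 arrays.

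The members, lists and tests were chosen with earlier results of these data known. Named were all members, for each of the 7 pathway lists the 3 genes with the smallest p where none passed, for each marker list the 2 genes with the highest mean, and the 5 genes nearest the members' mean course. 7 listed pathway genes had no probe set of their own.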

Additional observations from a re-analysis of the deposited data

How the results depend on the processing

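Of 111 alternative values for single genes of the group, 107 kept the sign of the difference and 0 passed the threshold. The exceptions were Dkc1, Ncl and Npm1 without Hdc-/- array 1, and the second Npm1 probe set (-0.0084). Many of the 107 were fixed in advance. Dropping dim genes, changing the prior or adding the replicate block cannot change a gene's difference, and averaging probe sets can change it only for Nop56 and Npm1. With each array left out in turn, Dkc1 ranged from -0.048 to 0.36, Ncl from -0.030 to 0.34 and Npm1 from -0.077 to 0.58. Averaging the probe sets of a gene gave 0.12 for Npm1, against 0.25. The median of the 9 genes ranged from 0.19 to 0.56 with each array left out, and was 0.33 with cyclic loess, 0.38 with quantile normalization and 0.39 with centred arrays. Over all genes, 1 was called higher and 0 lower as reported. These counts were 2 and 3 with quantile normalization, 3 and 2 with a trended and robust prior, 0 and 0 with every probe set tested, and 107 and 372 at an unadjusted p with a log2 difference of at least 1. With an array left out they ranged from 0 to 3 higher and from 0 to 158 lower, the 158 without Hdc+/+ array 1. With the replicate number as a block, 1 was called higher and 6 lower. The numbers were not shown to pair the samples, since deviations of same-numbered arrays correlated at -0.12 over genes. A block crossing the numbers, added after seeing the data, called 0 higher and 0 lower. The counts of positive and of separated genes without single arrays, and the other probe sets of Nop56 and Npm1, were also added after seeing the data. Fits with 3 arrays assume that the remaining single array varies as the other genotype does.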
